A study of Mus musculus with 5 samples.

Results

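The H3K9me3 islands of untreated mouse embryonic stem cells (ESCs) were placed against the H3K36me3 islands of the same cells. Members were taken by list and chromosome alone: all 17697 H3K9me3 islands on the 19 autosomes, out of 18464 in that list and 73415 in the 4 lists of the series, set against 11971 autosomal H3K36me3 islands out of 12280. An island is a broad stretch enriched for the mark, as called by the authors. The cells were TBV2 ESCs of strain 129/SvP, grown in medium with leukemia inhibitory factor, free of feeder cells on gelatin, for 5 days with no L-proline added. Chromatin was immunoprecipitated with 1 antibody per mark and sequenced (ChIP-seq) on a SOLiD 4 instrument. The other two lists, of H3K9me3 and of H3K36me3 in the same line kept for 5 days with 500 µM L-proline, had no part in choosing the islands or in their distance classes. They were used to split the islands by whether they were found again and as another H3K36me3 partner. Each mark and condition had 1 library, so no test between samples was possible, and all differences below are descriptions of these libraries. Intervals printed with shares are exact 95% binomial intervals over islands and cover counting error only. Islands carry positions on build mm9 and no gene names, so the ESC label was not checked against marker genes.

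H3K9me3 is the trimethyl mark on lysine 9 of histone H3. It is bound by heterochromatin protein HP1 and is found on repeats, in ESCs above all on endogenous retroviruses, where the methyltransferase SETDB1 is recruited by KAP1 and KRAB zinc finger proteins. H3K36me3 is laid down by SETD2, which travels with elongating RNA polymerase II, so it marks the bodies of transcribed genes and is usually strongest away from the start site. The marks are mostly found apart, and both are known together on KRAB zinc finger genes and at some imprinted loci.

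H3K9me3 lay in many short islands and H3K36me3 in fewer, longer ones. Over an autosomal span of 2409 Mb, counted from the first to the last base under either mark on each chromosome, H3K9me3 covered 53.2 Mb (2.21%) and H3K36me3 227.7 Mb (9.45%). The median width was 2.6 kb for H3K9me3 (quartiles 1.6 and 3.8 kb) and 12.8 kb for H3K36me3 (7.4 and 24.4 kb). The whole number given for each island was read as its count of sequenced tags. It summed to 1440142 tags for H3K9me3 and 25663212 for H3K36me3 within islands, and the depth of the libraries outside islands is unknown. The lists were not scaled to each other, so tags per kb are compared only among islands of 1 mark.

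The share of H3K9me3 islands clear of H3K36me3 was close to the share of the span that is free of it. Of the 17697 islands, 16269 (91.9%, interval 91.5 to 92.3) lay outside, where 90.5% of the span lies, 533 (3.01%, 2.76 to 3.27) lay across an edge of an H3K36me3 island and 895 (5.06%, 4.74 to 5.39) lay wholly inside one. Those outside were a median of 201.2 kb from the nearest H3K36me3 island (quartiles 55.6 and 626.6 kb), and the farthest was 6.21 Mb away. By distance, 1428 islands touched H3K36me3, 571 lay within 5 kb of it, 1457 within 20 kb, 3670 within 100 kb and 10571 farther away. The last class held 59.7% of the islands, while 62.4% of the autosomal span lay that far from H3K36me3.

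Wide islands touch a neighbour more readily than narrow ones, so the position of island midpoints was also taken. Midpoints of 1239 H3K9me3 islands fell under H3K36me3, 7.001% (interval 6.63 to 7.39) against the 9.45% of the span that H3K36me3 covers, a ratio of 0.741. This came to 5.44 islands per Mb under H3K36me3 and 7.55 per Mb elsewhere. By bases the gap was smaller, with 1.96% of H3K36me3 sequence and 2.23% of the remaining sequence under H3K9me3. The midpoint ratio was below 1 on 17 of the 19 autosomes, from 0.336 on chromosome 18, and above 1 on chromosome 10 (1.07) and chromosome 15 (1.26). The ratio turned when H3K36me3 islands of L-proline cells were used as the partner. They covered 9.36% of the span and held 11.1% of the untreated H3K9me3 midpoints, a ratio of 1.19. Of the midpoints 1174 lay under H3K36me3 in both conditions, 796 only under that of L-proline cells and 65 only under that of untreated cells. The pair of lists from untreated cells gave a shortfall of overlap that the mixed pair did not give.

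H3K9me3 coverage varied with the distance from H3K36me3 edges on both sides. Deep inside H3K36me3 islands, more than 20 kb from an edge, 0.667% of bases were under H3K9me3. Coverage was 1.09% at 10 to 20 kb, 1.85% at 5 to 10 kb and 2.53% at 2 to 5 kb inside, and it reached 2.97% at 1 to 2 kb and 2.96% in the outermost 1 kb. Taken over all H3K36me3 islands, sequence just within the borders was thus covered more than the span as a whole, and the deep interior less. The excess at the borders was not seen in wide H3K36me3 islands. Within 2 kb of an edge coverage was 3.22% in those of 5 to 20 kb. It was 1.84% at 20 to 50 kb and 1.42% over 50 kb, below the 2.21% of the span. On the outer side coverage was lower next to the border, 2.10% in the first 1 kb and 1.94% from 1 to 2 kb. It was highest at 10 to 20 kb (3.30%), then lower, 2.49% at 100 to 200 kb and 1.64% at 500 to 1000 kb, with 1.81% beyond 1000 kb. These outer values pool gaps of all lengths. In gaps of 200 kb to 1 Mb between H3K36me3 islands, coverage was 2.19% within 5 kb of an edge and 2.98% at 5 to 20 kb. It was 2.74% at 20 to 100 kb and 2.31% beyond. In gaps over 1 Mb the 4 values were 1.96%, 2.12%, 2.51% and 1.80%, highest at 20 to 100 kb.

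**Figure D1:**
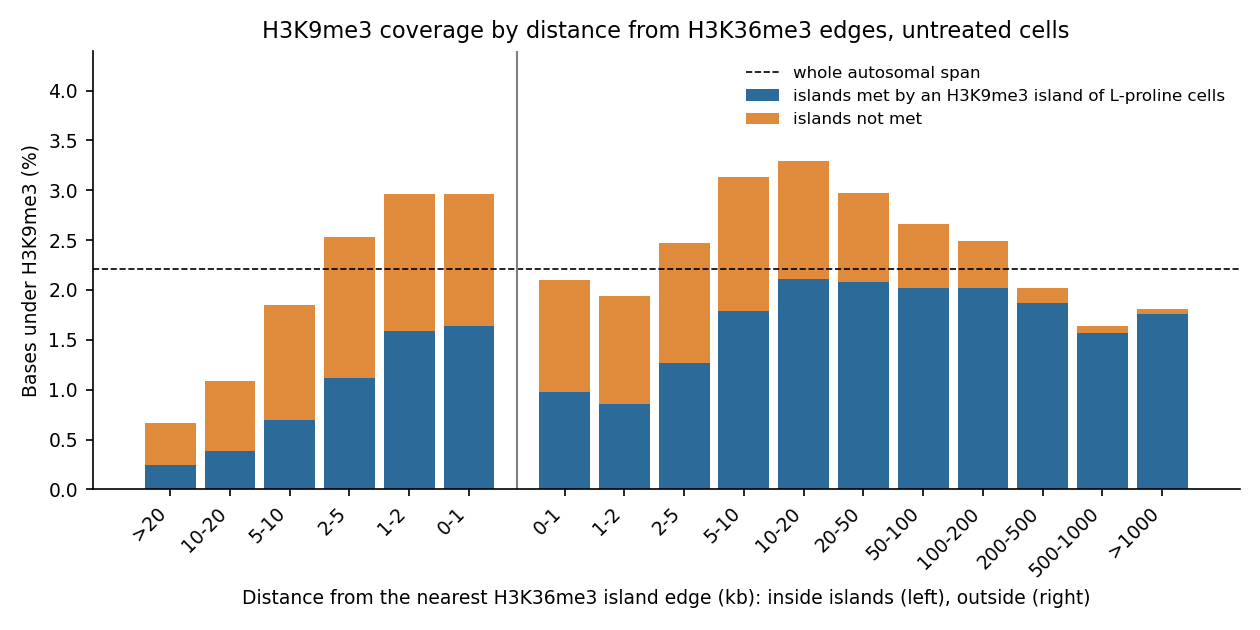
Share of bases under untreated H3K9me3 (vertical axis, %) in bins of distance from the nearest H3K36me3 edge (horizontal axis, kb), inside H3K36me3 islands left of the grey line and outside them right of it. Colours split islands that met an H3K9me3 island of L-proline cells from those that did not, and the dashed line is the 2.21% of the whole span; bars are lowest deep inside (0.667%) and highest 10 to 20 kb outside (3.30%).

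Taken over all islands, the interior was poorer in H3K9me3 within H3K36me3 islands of like width as well, since only wide islands have deep sequence. In H3K36me3 islands over 50 kb wide, 1.42% of bases within 2 kb of an edge and 0.912% of deeper bases were under H3K9me3. In islands of 20 to 50 kb the values were 1.84% and 1.53%, and in those of 5 to 20 kb 3.22% and 2.80%. Narrower H3K36me3 islands thus carried more H3K9me3 in both zones. In hosts over 50 kb the zones differed for H3K9me3 islands that overlapped one of L-proline cells (0.914% against 0.394%), and for those that did not they gave 0.506% and 0.518%. In hosts of 20 to 50 kb the former gave 1.05% near the edge and 0.513% deeper, whereas the latter went the other way, with 0.793% and 1.02%. In hosts of 5 to 20 kb the values were 1.64% and 1.26% for the former and 1.57% and 1.54% for the latter.

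Pooled over the autosomes, H3K9me3 islands near H3K36me3 were wider and sparser in tags than those far from it. The median width was 3.4 kb for touching islands (quartiles 2.4 and 4.6), 3.2 kb within 5 kb, 3.0 kb within 20 kb, 2.6 kb within 100 kb and 2.4 kb beyond (1.6 and 3.4). The ratio of the touching to the farthest class was 1.42. A width of 5 kb or more was found for 22.2% of touching islands and 10.6% of the farthest. Median tags per kb ran the other way, from 20 in touching islands (quartiles 14.3 and 31) through 22.4, 24 and 25 to 26.5 beyond 100 kb (21.2 and 34.3), a ratio of 0.754 between the outer classes. The total of tags per island hardly moved, with medians of 57 to 60 in all classes. Quartile ranges overlapped widely, so the shift concerns the bulk of the classes and does not separate single islands.

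**Figure D2:**
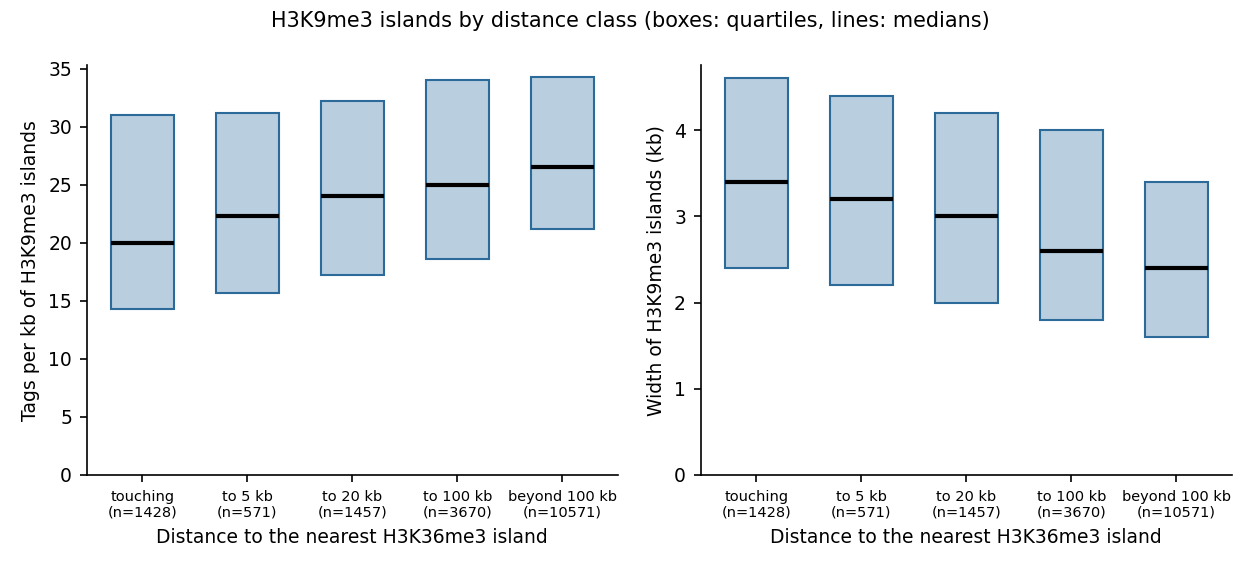
Tags per kb (left) and width in kb (right) of untreated H3K9me3 islands by distance to the nearest H3K36me3 island. Boxes span the quartiles and lines mark medians; medians go from 20 to 26.5 tags per kb and from 3.4 to 2.4 kb between touching islands and those beyond 100 kb.

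Within H3K9me3 islands of like width, the lower density near H3K36me3 was present at intermediate widths and faint or missing at the extremes. The smallest islands, of 0.2 kb, held at least 18 tags and so at least 90 tags per kb, which ties density to width. Among islands of over 3 and up to 4 kb, the median was 15.7 tags per kb in touching islands and 22.8 beyond 100 kb. Of over 4 and up to 6 kb, it was 15 and 23.6. In islands up to 1 kb the values were 43.5 and 43.3, and above 6 kb 24.2 and 25.6.

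The class limits cut through a gradual change. Islands 4 to 5 kb from H3K36me3 had a median of 22.9 tags per kb (n = 129) and those 5 to 6 kb away 24.1 (n = 123). On both sides of 20 kb, in bands of 4 kb, the medians were 25 (n = 356) and 24.1 (n = 305). For 100 kb, in bands of 20 kb, they were 26 (n = 657) and 25.7 (n = 606).

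Islands that touched H3K36me3 were found again less often in the second H3K9me3 library, that of L-proline cells. An untreated island counted as met where an L-proline island overlapped it by 1 bp or more. Of all 17697 islands 13965 were met. The share met was 44.7% (interval 42.1 to 47.3) of touching islands, 50.96% within 5 kb, 62.9% within 20 kb, 72.3% within 100 kb and 89.5% (88.9 to 90.1) beyond. Islands wholly inside H3K36me3 were met in 40.6% (37.3 to 43.9) and those across an edge in 51.6% (47.3 to 55.9). The share was lower for touching than for the farthest islands on all 19 autosomes, with touching shares from 11.8% on chromosome 19 to 75.7% on chromosome 6 and farthest shares from 83.6% to 93.8%. Treatment and library cannot be told apart here, as each condition had 1 H3K9me3 library.

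This order was present at each level of tags per island. In the quartile of islands with 43 to 58 tags, 19.04% of touching islands (interval 15.4 to 23.1) and 87.8% of the farthest (86.5 to 89.1) were met. With 18 to 42 tags the shares were 30.1% and 77.5%, and with 59 to 91 tags 41.0% and 95.5%. Among islands with 92 tags or more the gap was narrower, 84.5% against 99.1%. By width the gap was widest in islands of over 3 and up to 4 kb, 32.5% against 90.4%, and narrowest up to 1 kb, 56.1% against 78.1%.

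**Figure D3:**
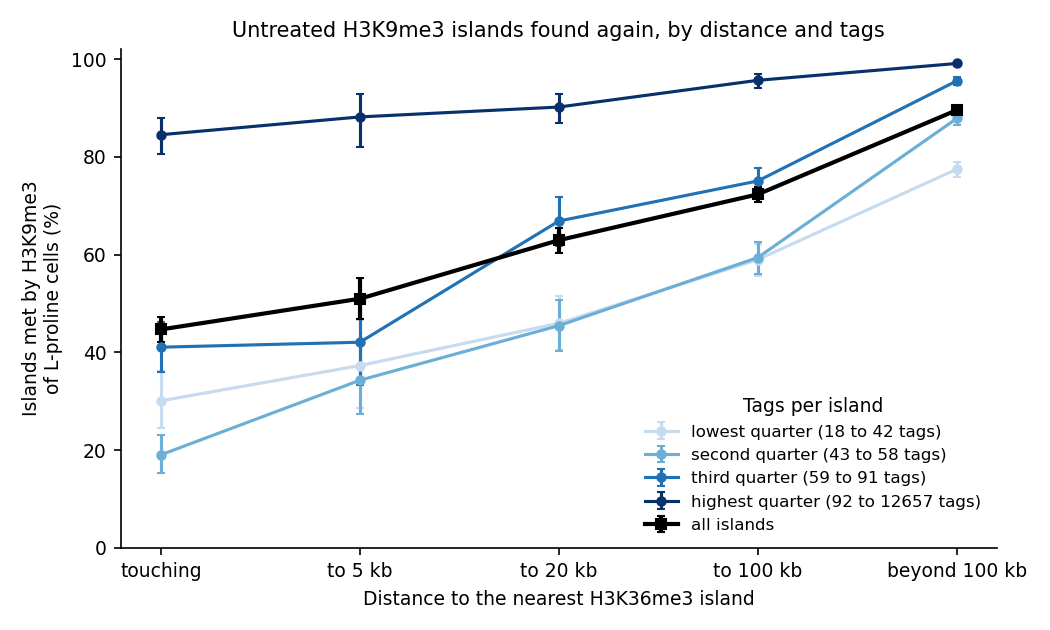
Share of untreated H3K9me3 islands that met an H3K9me3 island of L-proline cells (vertical axis, %) by distance to the nearest untreated H3K36me3 island, for all islands (black) and for quartiles by tag count (blue). Error bars are exact 95% binomial intervals; the black line goes from 44.7% to 89.5%, and in each of the 4 quartiles the touching class is the lowest.

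The touching class thus held islands of different density. In its 638 met islands the median was 31.2 tags per kb (quartiles 24.4 and 43.1), above the 27 of the 9465 met islands beyond 100 kb (21.7 and 34.6). Its 790 islands that were not met had a median of 15 (13.1 and 18.6) at a median width of 3.6 kb. The quartile ranges of met and unmet touching islands did not overlap. Taking met islands alone, the ratio of touching to farthest tags per kb was 1.15 in place of 0.754. Met islands were an uneven selection, with 44.7% of touching and 89.5% of the farthest islands kept. In both classes the share met was highest among islands with 92 tags or more. The ratio of 1.15 thus compares unlike selections, and how far the selection alone raised it was not tested. When all islands were taken, touching islands had the higher median on 6 of the 19 autosomes (3, 6, 13, 14, 16 and 18) and the lower on 13. On those 6 the touching islands numbered 22 to 48. The medians were 30 against 25.7 on chromosome 18 and 29.5 against 25.5 on chromosome 6. They were close on the others, such as 26.8 against 26.0 on chromosome 3 and 27.1 against 26.9 on chromosome 14. Few islands touched H3K36me3 on 5 of those 6, from 3.46% on chromosome 3 to 4.37% on chromosome 14, and on chromosome 16 8.08% did.

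The split by distance can be read from the other side, as the position of met and of unmet islands. Midpoints of met islands lay under H3K36me3 in 3.95% of cases (interval 3.63 to 4.28), 0.417 times the covered share of the span. For unmet islands the value was 18.4% (17.2 to 19.7), or 1.95 times. By bases, met islands covered 0.877% of H3K36me3 sequence and 1.83% of the rest, and unmet islands 1.09% and 0.403%. With H3K36me3 of L-proline cells as the partner the midpoint ratios were 0.821 for met and 2.57 for unmet islands. Of the 897 unmet midpoints under the L-proline list 657 lay under both H3K36me3 lists, and of the 1073 met midpoints under it 517 did.

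H3K36me3 islands that carried H3K9me3 were somewhat wider and denser in tags than the rest. Of 11971 H3K36me3 islands, 1247 (10.4%, interval 9.88 to 11.0) touched an H3K9me3 island, and 163 touched 2 or more, up to 5. Their median width was 15 kb against 12.6 kb, and their median 82.9 tags per kb (quartiles 56.4 and 133.4) against 70.4 (49.4 and 119.1). At 20 to 50 kb the medians were 112 and 97.9 tags per kb, and above 50 kb 111 and 112, so the difference was not seen in the widest. It was small in the narrowest, up to 5 kb, with 65.6 and 64.1. Wide islands touch a neighbour more readily, and how far this gave the difference in width was not tested. The share touched was 9.04% up to 5 kb and 15.3% above 50 kb, although the bases under H3K9me3 went from 5.41% down to 0.941%.

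Islands wholly inside took up a small part of their hosts. The 895 islands lay in 773 H3K36me3 islands, which weighed by the islands within them had a median width of 20.8 kb, and each took up a median of 15.1% of its host. They lay a median of 3.2 kb from the nearer host edge (quartiles 1.2 and 6.8 kb). Scaled to the free length of the host, 27.0% (interval 24.1 to 30.01) of 890 islands lay in the outer 10% on either side, and 17.5% to 18.8% in each of the 4 deeper steps of 10%. Each step counts both sides, so even placement would give every step the same share, and that share is above 10%. Islands across an edge had a median of 66.7% of their length under H3K36me3 (quartiles 41.2 and 83.3), and 39 of the 533 enclosed a whole H3K36me3 island.

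The widest H3K9me3 island wholly inside H3K36me3 spanned 12.8 kb at chr9:114317801-114330600, with 55.4 tags per kb, in a host of 76.8 kb that began at 114311601. The next, of 12.6 kb at chr10:79194401-79207000, filled most of its 15.6 kb host and held 91.7 tags per kb. One of 12 kb at chr10:41513401-41525400, held 48.6 tags per kb in a host of 15.2 kb. All 3 were met in L-proline cells. The 2 others of the 5 widest were sparse and not met, at chr4:155542601-155554200 (11.6 kb, 20.2 tags per kb) and chr11:120673001-120683600 (10.6 kb, 12.4 tags per kb). Their hosts were dense in H3K36me3, with 181.7 and 368.9 tags per kb against a list median of 71.7.

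Of the 5 inside islands with most tags per kb, 3 shared both edges with their H3K36me3 island. At chr9:123840801-123845000 H3K9me3 held 214.8 and H3K36me3 532.1 tags per kb. Close by, at chr9:123832201-123834800, the values were 188.1 and 239.2, and at chr4:145033801-145041000 they were 126.9 and 298.3. The same edges in both lists were found for 5 islands in all, the others at chr4:146764001-146766200 and chr19:9681401-9684200, and all 5 were met in L-proline cells. The input library was not analysed here, so a gathering of tags without antibody was not tested for these sites. The other 2 dense inside islands were narrow and sat in long hosts of low H3K36me3 density. They were chr7:89919601-89920800 (166.7 tags per kb, host of 35.2 kb with 65.8) and chr9:56108001-56108600 (155.0, host of 38.0 kb with 56.8).

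Islands across an edge included the broadest overlaps of the marks. The island at chr1:90123201-90170400 was 47.2 kb wide, and 16.4 kb of it lay under an H3K36me3 island that ran on to 90176200 with 434.7 tags per kb. At chr17:6934401-6957200, 18.8 of 22.8 kb lay under an H3K36me3 island of 41.8 kb. The third widest, of 16.8 kb at chr10:82866601-82883400, enclosed a whole H3K36me3 island of 10.0 kb. The densest were chr15:59972801-59973800 (384.0 tags per kb), chr17:39978201-39986000 (265.1) and chr12:20232001-20241000 (127.4), each of which enclosed a whole H3K36me3 island, of 0.8, 6.0 and 4.2 kb. Among H3K36me3 islands the most H3K9me3 lay on chr4:57825401-57876800, where 4 islands covered 22.0 of 51.4 kb. On chr15:98662401-98699800 5 islands with a median of 15.8 tags per kb covered 52.4% of a 37.4 kb host.

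Outside H3K36me3, the widest island of each class was that at chr11:3025601-3101000 within 5 kb (75.4 kb, 3.2 kb from H3K36me3), chr10:82896601-82919000 within 20 kb (22.4 kb), chr17:27373001-27402800 within 100 kb (29.8 kb) and chr17:27491201-27537000 beyond (45.8 kb). The chromosome 11 island was also the densest of its class, with 167.9 tags per kb. In the other classes the densest were the narrow islands chr12:81523201-81523400 (150 tags per kb, 0.2 kb) and chr9:35112601-35113400 (1186 tags per kb, 0.8 kb), and the wider chr2:98502201-98507800 (910.2 tags per kb, 5.6 kb). The last lay 3015 kb from the nearest H3K36me3 island. All were met in L-proline cells, which does not tell the mark from tags that gather without antibody in every library. The input library was not analysed, so such a gathering was not tested for these islands or for the densest islands across an edge.

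Stretches between H3K36me3 islands were filled unevenly. In gaps of up to 10 kb, 1.51% of 4951 gaps held an H3K9me3 midpoint, at 4.39 islands per Mb. The density was 8.85 per Mb in gaps of 10 to 50 kb, 8.96 at 50 to 200 kb, 8.42 at 200 kb to 1 Mb and 6.88 in the 535 stretches over 1 Mb. By number of islands short gaps were thus the poorest and those of 10 kb to 1 Mb the richest. By bases under H3K9me3 gaps of up to 10 kb (1.85%) and stretches over 1 Mb (1.89%) were close, and the classes between had 2.57% to 3.29%. Median tags per kb were 16.8, 22.2, 22.8, 25.6 and 26.7 in this order, and the shares met in L-proline cells 35.4%, 52.0%, 59.7%, 76.3% and 91.9%. The longest stretch free of H3K36me3 ran over 12.4 Mb of chromosome 15 (12868201 to 25299200) and held 114 H3K9me3 islands, 9.17 per Mb, of which 93.9% were met. On chromosome 14 (87907801 to 99430400) and chromosome 5 (9159601 to 20261800) the next longest held 6.08 and 6.49 per Mb.

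At the scale of 1 Mb windows the coverages of the marks went together weakly, unlike at the scale of islands. The 2385 windows had a median of 1.52% under H3K9me3 (quartiles 0.74 and 2.88) and 5.38% under H3K36me3 (0 and 15.1). Across windows, which share both libraries and are not replicates, Spearman's rho of the 2 coverages was 0.219 and Pearson's r 0.199. The rho was above 0 on 16 of the 19 autosomes, from -0.0464 on chromosome 13 to 0.462 on chromosome 16. The relation is weak, and 739 windows had no H3K36me3 at all. Median H3K9me3 coverage was 1.16% in those, 1.43% where H3K36me3 covered 5 to 10%, 1.97% at 20 to 30% and 2.89% (quartiles 1.54 and 4.36) in the 162 windows over 30%. Both number and width of H3K9me3 islands differed between the outer classes. Windows without H3K36me3 held 6.41 islands each at a median width of 2.4 kb, and those over 30% held 9.14 at 3.4 kb.

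Within rich windows H3K9me3 lay mainly in the sequence left free by H3K36me3. In the windows over 30%, with a mean H3K36me3 coverage of 37.2%, 26.4% of H3K9me3 bases were under H3K36me3. There H3K9me3 covered 3.96% of the free sequence and 2.40% of the H3K36me3 sequence. At 10 to 20% the values were 2.32% and 1.57%, and in windows of up to 5% they were close, 2.08% and 2.02%.

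The relation across windows was seen for islands not met in L-proline cells and not for met ones. Coverage by unmet islands had a rho of 0.515 with H3K36me3 coverage, and coverage by met islands -0.00446. From windows free of H3K36me3 to those over 30%, mean coverage by unmet islands went from 0.0626% to 1.93%, and that by met islands from 1.69% to 1.45%. Touching islands were met in 72.7% of cases in windows of up to 5% H3K36me3 and in 25.2% in those over 30%. For islands outside H3K36me3 the shares were 89.2% and 50.1%, so the lower share in rich windows was not limited to islands that touch.

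**Figure D4:**
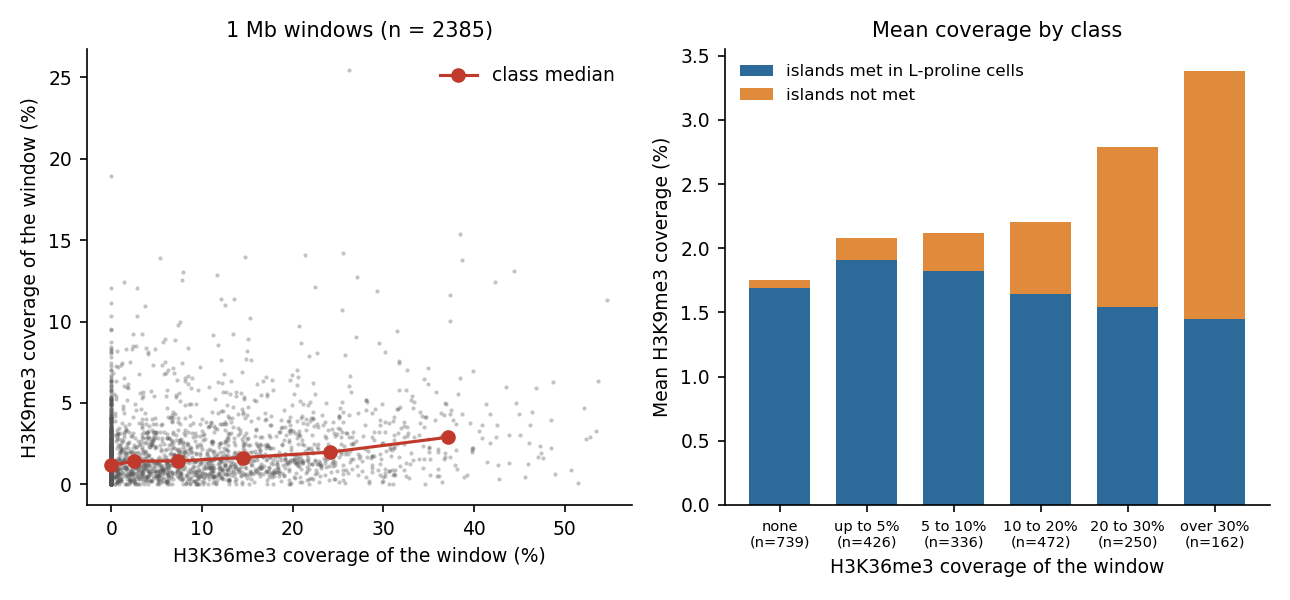
Left, H3K9me3 coverage against H3K36me3 coverage of 2385 autosomal windows of 1 Mb (both axes in %), with red points at the median of each H3K36me3 class. Right, mean H3K9me3 coverage by class, split by colour into islands met and not met in L-proline cells; the unmet part goes from 0.0626% to 1.93% while the met part stays between 1.45% and 1.91%.

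The windows with most H3K9me3 were of different kinds. On chr17:27000001-28000000 H3K9me3 covered 25.5% and H3K36me3 26.2%, yet 6.44% of the H3K9me3 bases were under H3K36me3, and 3 of 31 islands lay wholly inside. The window chr1:119000001-120000000 had 18.9% H3K9me3 in 33 islands, with no H3K36me3, and all 33 were met. Over all windows free of H3K36me3 93.6% of islands were met. On chr10:80000001-81000000 both marks were dense (15.4% and 38.4%), 43.3% of H3K9me3 bases were shared, and 3 of 34 islands were met. The next windows, chr15:98000001-99000000 and chr15:82000001-83000000, had 14.2% and 14.1% H3K9me3.

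H3K36me3 covered most at chr1:36000001-37000000 (54.7%), followed by chr1:120000001-121000000 (53.7%), chr4:137000001-138000000 (53.5%), chr8:109000001-110000000 (52.8%) and chr16:17000001-18000000 (52.4%). H3K9me3 covered 11.3% of the first, 6.34% of the second and 3.28%, 2.88% and 2.78% of the others. Windows high in both marks by the lower of the 2 ranks were, in order, chr1:36000001-37000000, chr15:76000001-77000000, chr15:99000001-100000000, chr15:79000001-80000000 and chr10:80000001-81000000. They held 26 to 34 H3K9me3 islands each with medians of 13.3 to 17.1 tags per kb, below the list median of 25.6, and 2 to 8 of these were met in L-proline cells. Chromosome 15 gave 3 of the 5. It also had the largest share of touching islands, 15.1% (interval 13.0 to 17.3) of 1107, against 3.46% (2.48 to 4.68) on chromosome 3. Chromosomes 15 and 1 were the densest in H3K9me3, at 11.0 and 10.5 islands per Mb, where the other autosomes had 5.64 to 8.26.

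**Figure D5:**
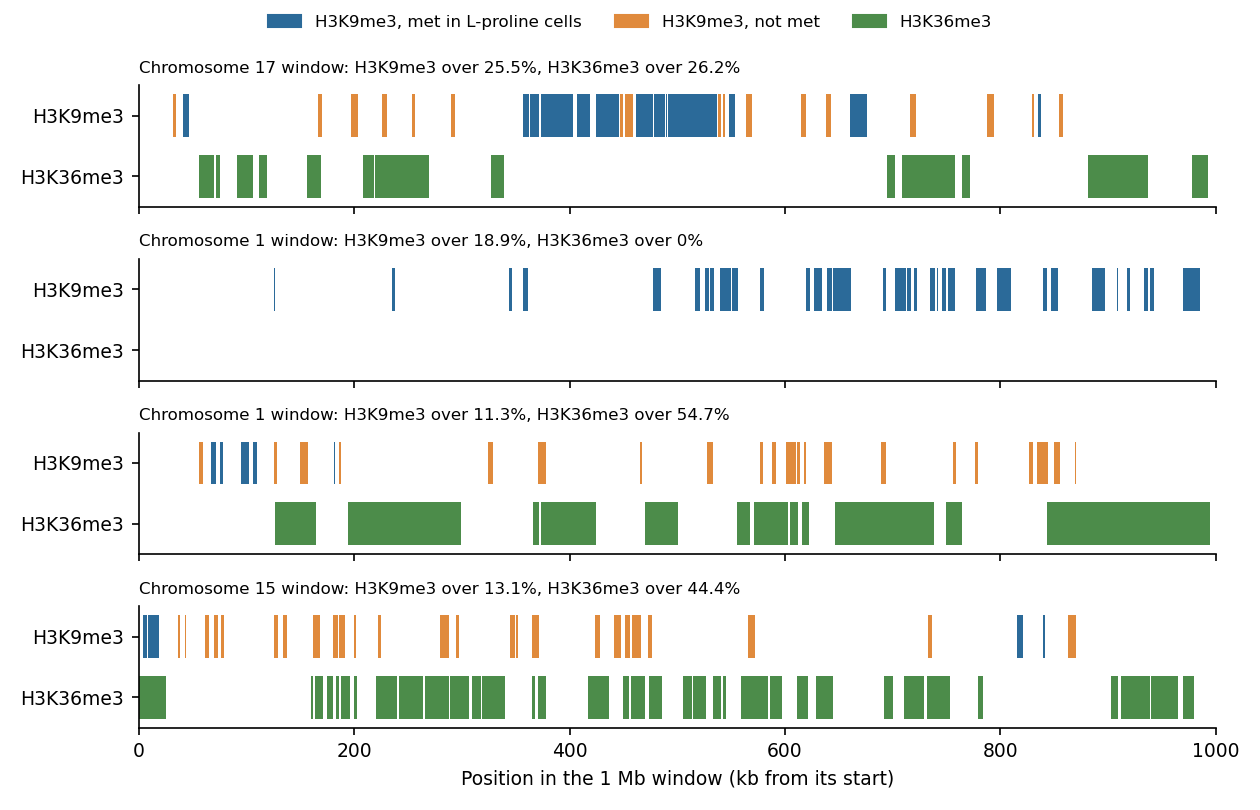
Islands in 4 windows of 1 Mb (horizontal axis, kb from the window's start): the 2 with most H3K9me3, the one with most H3K36me3 and the second by lower rank. Upper rows show H3K9me3 islands, coloured by whether an L-proline island met them, and lower rows H3K36me3; on chromosome 17 the H3K9me3 block sits in a stretch free of H3K36me3, and in the chromosome 15 window 56.1% of H3K9me3 bases lie under H3K36me3.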

How the data were processed

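Members, classes and alternatives were chosen with earlier results of these data known. Per the submitters' processing notes, SICER made the islands on mm9; the sources used here do not give its version and settings, the aligner, duplicate treatment or use of the input. Each deposited file gives chromosome, start, end and a whole number per island, read as a tag count with no scaling. Starts and ends lay on a grid of 200 bp, ends were taken as inclusive, and positions are printed 1-based. No annotation or genome of build mm9 was used here.

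Distance is the number of bases between an H3K9me3 island and the nearest H3K36me3 island; overlap by 1 bp or more is touching. Windows of 1 Mb lay wholly within the span. Regions named are, by rule, the widest and the densest islands of each class, the H3K36me3 islands with most H3K9me3, the longest free stretches and the extreme windows; the 2 islands with shared edges outside it were named after their values were seen. Software was pandas 2.3.3, scipy 1.17.1, numpy 2.4.6 and matplotlib 3.10.9 under Python 3.11.15. The placement script was tested on 9654 planted islands and placed 100% of them correctly by relation and distance. Alternatives changed the lists, joining, widths, chromosomes, H3K36me3 partner and window size.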

Additional observations from a re-analysis of the deposited data

How the results depend on the processing

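No paired analysis was possible because mark and condition were represented by 1 library each, and no replicate could be left out. Under 16 other settings 8 results gave 93 values. Of these, 66 stayed within the interval of the main value, 24 moved past it and 3 changed sign or side of 1. The cause was not tested. For ratios of medians that interval came from order statistics of each median. For rho it was a Fisher interval that takes windows as independent, which they are not. Settings that used only met islands, left out islands with shared edges or left out chromosome 1 were added after seeing the data. The share of H3K9me3 islands outside H3K36me3 was 94.9% with the 50% of islands holding most tags, 92.4% without chromosome 15, 87.7% with H3K36me3 of L-proline cells, 92.9% with an overlap of at least 50%, 90.8% with 2 kb counted as touching and 95.4% with met islands only. The share wholly inside was 3.48% with the 50% holding most tags, 5.61% with H3K36me3 joined over 5 kb, 7.71% with H3K36me3 of L-proline cells and 2.60% with met islands. The midpoint ratio was 0.601 with the 50% holding most tags, 0.417 with met islands and, on the other side of 1, 1.19 with H3K36me3 of L-proline cells. The ratio of touching to farthest tags per kb was 0.871 with the 50% holding most tags, 0.862 with H3K36me3 of L-proline cells and, again past 1, 1.15 with met islands. That of widths was 1.35 with the 50% holding most tags, 1.38 with islands of at least 1 kb and 1.33 with met islands. Touching islands were met in 47.5% without chromosome 15, 53.6% with H3K36me3 of L-proline cells and 40.0% at widths of 2 to 4 kb, and the farthest in 86.1% with the 50% holding most tags and 91.3% at 2 to 4 kb. Spearman's rho over windows was 0.261 with H3K36me3 of L-proline cells, 0.171 in windows of 500 kb and -0.00446 with met islands, which is near 0 and shows no direction. Tag counts limit what can be seen: the median H3K9me3 island held 58 tags, and sites below the authors' calling threshold are not listed.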
